A study of Mus musculus with 16 samples.

Results

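Enzymes that move hydrogen between alcohols, aldehydes and acids were compared among the kidneys of 5 littermate mice. The members were the genes with a single platform symbol that starts with Aldh, Adh and a digit, Akr, Cbr and a digit, Dhrs or Rdh. The platform held 38 such genes among 9669 named genes, and 34 of them were tested among 8005 named genes. The tested members were 9 of 12 Aldh genes, 2 of 2 Adh genes, 7 of 8 Akr genes, 3 of 3 Cbr genes, 7 of 7 Dhrs genes and 6 of 6 Rdh genes. Testing a probe required a value on 3 or more arrays, of 4, for each of W1 to W4.

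The mice W1 to W5 were untreated wild-type males on a mixed C57BL/6 and 129Sv background, killed at an age of 88 days (within 2 days) between 8 and 10 in the morning. RNA of the right kidney of each of W1, W2, W3 and W4 was hybridised with RNA of the right kidney of W5 on 4 two-colour arrays, 16 arrays in all, and W5 was in channel 1 on 2 of the 4 arrays of each mouse. The series asks how far expression varies between kidneys of normal littermates. The 4 arrays of a mouse were repeat hybridisations with no label of separate extracts. Tests on the arrays therefore concern these kidneys and the spread between arrays, which is technical. Only the test of the 4 mouse means against W5 is set against the spread between mice.

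Each value is a log2 ratio between a mouse and W5, and its sign was turned on the arrays with W5 in channel 1. The labels name neither the dye of a channel nor the numerator of the ratio. A plus value and a minus value are therefore the 2 sides of W5, and which side means more transcript is not settled. A ratio also keeps no level, so whether markers of a tissue were present at all could not be read from these values. The number of values per array was 16209 to 18406 of 20205 probes, and the number of arrays limits the precision.

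Retinol, the alcohol form of vitamin A, is oxidised to retinal by retinol dehydrogenases of the Rdh and Dhrs families and by some alcohol dehydrogenases. Some aldehyde dehydrogenases of the Aldh1a group then oxidise retinal to retinoic acid, the ligand of the nuclear retinoic acid receptors. Other aldehyde dehydrogenases, the aldo-keto reductases (Akr) and the carbonyl reductases (Cbr) clear aldehydes and ketones that arise from lipids, amino acids, sugars and foreign compounds, and several also act on steroids. The proximal tubule of the kidney is rich in such enzymes.

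Aldh1a7 and Rdh16f2, the main exceptions below, each lie in a gene cluster with a related member, Aldh1a1 and Rdh16. The promoters of these 2 pairs are shown for a reader to compare. They are from RefSeq (build GRCm38.p6) and run from 250 bases before to 50 bases after the start, 5′ to 3′. Aldh1a7 and Aldh1a1 are neighbouring coding genes on chromosome 19. The Aldh1a7 promoter is at chr19:20727507-20727806 on the minus strand, and the second of the promoters listed for Aldh1a1 is at chr19:20601718-20602017 on the plus strand. Rdh16f2 and Rdh16 lie on chromosome 10 with 1 coding gene, Rdh19, between them. The Rdh16f2 promoter is at chr10:127866226-127866525 and the Rdh16 promoter at chr10:127800903-127801202, both on the plus strand. Capitals mark the longest run of bases that the promoters of a pair share, 65 bases for the Aldh1a pair and 17 bases for the Rdh16 pair.
Aldh1a7: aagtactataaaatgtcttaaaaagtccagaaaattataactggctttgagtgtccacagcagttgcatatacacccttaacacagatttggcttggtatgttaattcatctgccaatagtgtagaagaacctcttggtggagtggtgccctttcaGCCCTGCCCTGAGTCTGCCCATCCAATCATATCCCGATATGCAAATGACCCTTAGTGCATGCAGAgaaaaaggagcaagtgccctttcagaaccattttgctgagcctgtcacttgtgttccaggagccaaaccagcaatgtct
Aldh1a1: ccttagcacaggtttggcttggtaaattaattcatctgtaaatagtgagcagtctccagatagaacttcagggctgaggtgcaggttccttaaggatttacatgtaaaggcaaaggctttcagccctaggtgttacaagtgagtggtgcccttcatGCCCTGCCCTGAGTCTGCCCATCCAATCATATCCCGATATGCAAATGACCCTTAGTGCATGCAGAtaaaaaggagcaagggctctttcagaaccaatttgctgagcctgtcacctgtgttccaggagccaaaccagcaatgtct
Rdh16f2: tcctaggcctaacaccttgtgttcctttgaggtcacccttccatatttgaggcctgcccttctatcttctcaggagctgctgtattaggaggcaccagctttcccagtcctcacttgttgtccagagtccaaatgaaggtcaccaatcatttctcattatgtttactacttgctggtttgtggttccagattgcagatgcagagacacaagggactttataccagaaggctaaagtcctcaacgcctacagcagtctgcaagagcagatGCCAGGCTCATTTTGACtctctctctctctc
Rdh16: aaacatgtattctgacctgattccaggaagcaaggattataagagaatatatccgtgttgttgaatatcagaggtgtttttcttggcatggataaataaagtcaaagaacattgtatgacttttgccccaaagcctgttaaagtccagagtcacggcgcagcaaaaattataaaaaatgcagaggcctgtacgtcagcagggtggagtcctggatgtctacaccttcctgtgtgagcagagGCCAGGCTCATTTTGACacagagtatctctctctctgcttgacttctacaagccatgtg

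The Aldh1a7 promoter was identical to this Aldh1a1 promoter at 70.2% of 315 aligned positions, and to the other promoter listed for Aldh1a1 at 50.6%. The Rdh16f2 and Rdh16 promoters were identical at 47.7%, and promoters of different clusters among these 4 genes at 43.8% to 47.0%, close to the share of the Rdh16 pair. A search on both strands for TATAAA (the TATA box), AGGTCA (a core string of nuclear receptor sites), TGTTCT (of steroid receptor sites), GTTAAT (of HNF1 sites) and TGACNNNGC (the antioxidant response core) found no overlapping matches. Aldh1a7 had TATAAA 244 bases and GTTAAT 150 bases before the start, and neither Aldh1a1 promoter had any of these strings. Rdh16f2 had AGGTCA 221 and 114 bases before the start and TATAAA on the minus strand at 35 bases. Rdh16 had TATAAA at 82 bases, and on the minus strand AGGTCA at 238 and TGTTCT at 145 bases. Of 32851 promoters of this length, 13.6% held TATAAA, 16.3% AGGTCA, 19.0% TGTTCT, 7.1% GTTAAT and 12.4% TGACNNNGC. These matches are descriptions of the windows, and no binding was measured.

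Most of the enzymes differed little between the 5 kidneys, and the exceptions were Aldh1a7 and Rdh16f2. The range of a gene is the distance between its highest and lowest kidney on the log2 scale, with W5 at 0. The median range of the 34 members was 0.22 (1.17-fold), against 0.23 (1.18-fold) over all 8005 named genes. A range under 0.2 was found for 16 of the 34 members (47.1%), against 37.4% of all named genes. A range over 1.5-fold was found for 4 of the 34 members, against 274 of 8005 named genes. A range over 2-fold was found for 3 members (Aldh1a7, Aldh1a1 and Rdh16f2), against 25 of 8005 named genes. The other member over 1.5-fold was Rdh5, through 1 array of W4, without which its range was 0.36. Fewer cells of a type and less RNA per cell cannot be told apart in these whole-kidney ratios.

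A difference among the 5 kidneys was tested with limma's moderated F test, fitted over all 15715 tested probes with a dye term for each probe, and called at a Benjamini-Hochberg adjusted p under 0.05. It called 5 of the 34 members (14.7%), against 336 of 8005 named genes (4.20%). The members were chosen with earlier results of these data known, which bears on this and later shares of members. The called members were Aldh1a7, Aldh7a1, Rdh16f2, Rdh16 and Dhrs7. At an unadjusted p under 0.05 the counts were 11 members and 1460 named genes (18.2%). By family, 2 of 9 Aldh, 2 of 6 Rdh and 1 of 7 Dhrs genes were called, and none of the 2 Adh, 7 Akr and 3 Cbr genes (limma; 1 of these 12, Adh1, had an unadjusted p under 0.05). The median range was 0.17 in Aldh, 0.24 in Adh, 0.22 in Akr, 0.14 in Cbr, 0.29 in Dhrs and 0.41 in Rdh.

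**Figure D1:**
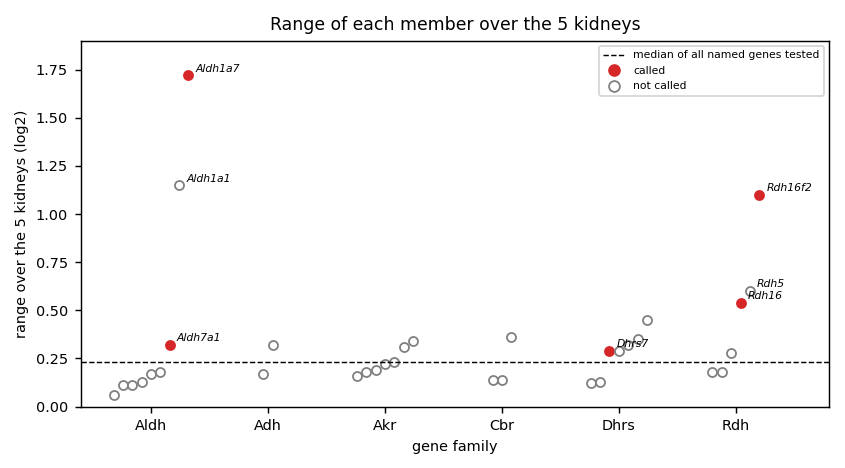
Range of each of the 34 tested members over the 5 kidneys (log2, vertical axis) by gene family (horizontal axis); filled points were called in the 5-kidney test, open points were not, and the dashed line is the median of all named genes, 0.23. Aldh1a7 (1.72), Aldh1a1 (1.15) and Rdh16f2 (1.10) stand above the other members, and most open points lie near or under the line.

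Among the Aldh genes, Aldh1a7, a rodent relative of the retinaldehyde dehydrogenase Aldh1a1, separated the kidneys most. Whether its product acts on retinal was not tested. Its range of 1.72 (3.30-fold) ranked 8 among the named genes. The turned log2 ratios were -0.98, -1.09, -1.50 and -1.42 on the 4 arrays of W1 and -0.91, -1.13, -1.77 and -0.50 on those of W2. They were 0.33, 0.63, 0.07 and 0.89 on the arrays of W3 and 0.12, 0.39 and 0.41 on the 3 arrays of W4 that had a value. All 8 arrays of W1 and W2 were on the minus side and all 7 of W3 and W4 on the plus side, with no overlap.

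The fitted coefficients of Aldh1a7 against W5 were -1.25 ± 0.14 (SE) for W1, -1.08 ± 0.14 for mouse W2, 0.48 ± 0.14 for mouse W3 and 0.25 ± 0.16 for W4 (limma, adjusted p = 1.41e-05 over the 5 kidneys). W1 and W2 differed from W5 by 2.37-fold and 2.11-fold (limma, adjusted p = 6.49e-05 and 0.000278), in pairs that called 0.937% and 2.49% of named genes. W1 also differed from W3 by 3.30-fold and from W4 by 2.82-fold (limma, adjusted p = 0.000419 and 0.00221; 0.212% and 0.237% of named genes were called). W2 differed from W3 by 2.94-fold and from W4 by 2.51-fold (limma, adjusted p = 0.000827 and 0.00936; 0.337% and 0.275% of named genes were called). The remaining pairs were not called: W1 and W2 differed by 0.17 ± 0.20 (SE; limma, adjusted p = 0.881) and W3 and W4 by 0.23 ± 0.21 (limma, adjusted p = 0.777). W3 and W4 were not called against W5 (limma, adjusted p = 0.156 and 0.490). The 6 called pairs were those between W1 or W2 and each of W3, W4 and W5.

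Aldh1a7 was the only member called in the test among W1 to W4, in which W5 cancels (limma, adjusted p = 0.000188). That test called 66 of 8005 named genes (0.824%); at an unadjusted p under 0.05 it had 7 members and 11.4% of named genes. The array-to-array spread of Aldh1a7 left after the fit was wide, with a residual SD of 0.32, above that of 92.3% of named genes. As deposited, before any sign was turned, its mean had opposite signs in the 2 channel arrangements in each of the 4 mice.

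**Figure D2:**
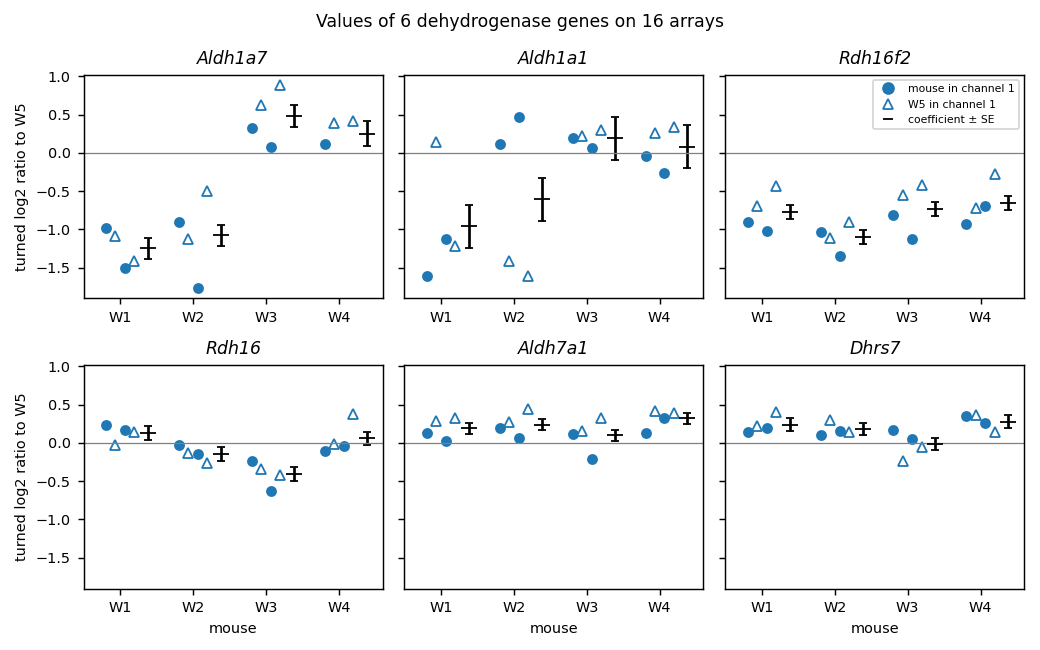
Turned log2 ratio to W5 of 6 genes (vertical axis) on each array of the mice W1 to W4 (horizontal axis), with filled circles for arrays with the mouse in channel 1, open triangles for arrays with W5 in channel 1, and bars for the fitted coefficient ± SE. Aldh1a7 lies below 0 in W1 and W2 and above 0 in W3 and W4, Rdh16f2 lies below 0 on all 16 arrays, and Aldh1a1 is split within W1 and W2.

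Aldh1a1, the cytosolic retinaldehyde dehydrogenase next to Aldh1a7, had the same order of kidneys but was not called. Its values were -1.61, 0.14, -1.13 and -1.22 on the arrays of W1 and 0.11, -1.41, 0.47 and -1.61 on those of W2. They were 0.19, 0.22, 0.06 and 0.30 on the arrays of W3 and -0.04, 0.26, -0.26 and 0.34 on those of W4. W3 and W4 stayed near 0, and the arrays of W1 and W2 fell into values of -1.61 to -1.13 and values of 0.11 to 0.47. In W2 the arrays with W5 in channel 1 were the low ones, and as deposited the values of W2 were 0.11, 1.41, 0.47 and 1.61, all above 0, so the 2 channel arrangements did not mirror each other there.

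The coefficients of Aldh1a1 were -0.96, -0.61, 0.19 and 0.08 in W1 to W4, each with an SE of 0.28 (limma, adjusted p = 0.160). Its residual SD of 0.69 was above that of 99.9% of named genes. It passed the threshold under 3 alternatives: with array weights, without array 2 of W1, and without the mouse W2 (limma, adjusted p = 0.037, 0.0323 and 0.033, over a range of 0.0323 to 0.435 in all 29 alternatives). Over the 4 coefficients the cosine of Aldh1a1 with Aldh1a7 was 0.981. Over the 15 arrays with both values the correlation was 0.501, and the correlation of what was left after the fit was -0.307; the arrays share W5, their dyes and their slides. The likeness was thus in the mouse means. Within W2 the arrays with the lowest Aldh1a7 value, -1.77, and the highest, -0.50, had Aldh1a1 at 0.47 and -1.61, while within W3 and W4 the array highest for Aldh1a7 was also the highest for Aldh1a1. Whether a spot of one gene also bound transcript of the other was not tested.

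**Figure D3:**
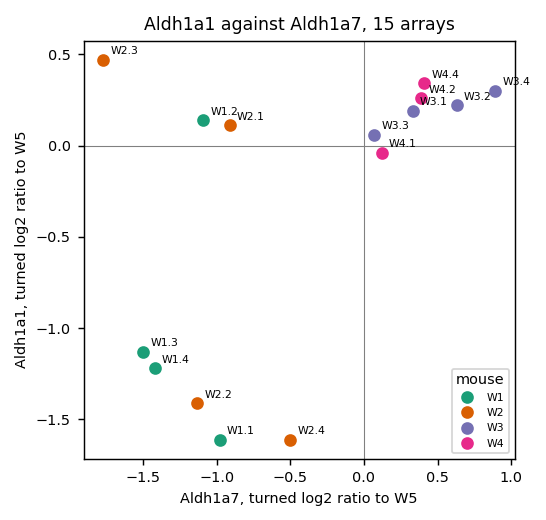
Turned log2 ratio to W5 of Aldh1a1 (vertical axis) against that of Aldh1a7 (horizontal axis) on the 15 arrays with both values; colours are the mice and labels give mouse and array number. Arrays of W3 and W4 lie near or above 0 for both genes, while arrays of W1 and W2 are all below 0 for Aldh1a7 but range from -1.61 to 0.47 for Aldh1a1.

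Aldh7a1, which oxidises aldehydes of lysine breakdown and betaine aldehyde, lay on the plus side in all 4 mice by a small amount. Its values were 0.13, 0.29, 0.02 and 0.33 on the arrays of W1 and 0.19, 0.27, 0.07 and 0.44 on those of W2. They were 0.12, 0.16, -0.21 and 0.33 for W3 and 0.13, 0.42, 0.32 and 0.39 for W4. Of 16 arrays, 1 array of W3 was below 0, and the mice overlapped. The coefficients were 0.19, 0.24, 0.10 and 0.32 (SE 0.07 each; 1.24-fold range; limma, adjusted p = 0.0108), and of the pairs only W4 and W5 were called (limma, adjusted p = 0.0262; 2.32% of named genes). The call was lost without the dye term (limma, adjusted p = 0.0801) and without the mice W1, W2 or W4 (limma, adjusted p = 0.0547, 0.0583 and 0.0922).

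The other 6 tested Aldh genes had ranges of 0.06 to 0.18, and limma called none of them. They were Aldh16a1, Aldh3a1 (an enzyme of the cornea), Aldh8a1 (tryptophan breakdown), the mitochondrial acetaldehyde enzyme Aldh2, Aldh5a1 (succinic semialdehyde), and the fatty aldehyde dehydrogenase Aldh3a2. Aldh3a2 had the narrowest range, 0.06, with coefficients of 0.06, 0.00, 0.01 and 0.03. A further Aldh2 probe had a range of 0.30, against 0.11 for the probe used, and neither was called (limma, adjusted p = 0.151 and 0.966). Of the Aldh and Akr genes, 4 had too few values for the tests. Over the arrays with a value, Aldh3b1 ran from -0.16 to 0.38 (median 0.05, 13 arrays), Aldh3b2 from -0.36 to 0.29 (0.01, 11 arrays), Aldh1l1 from -0.63 to 0.64 (-0.16, 12 arrays) and Akr1cl from -0.63 to 0.32 (-0.03, 13 arrays).

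Among the retinol dehydrogenases, Rdh16f2 set W5 apart from all 4 littermates. Rdh16f2 belongs to the Rdh16 group of short-chain dehydrogenases, which act on retinols and on hydroxysteroids. Its values were -0.90, -0.70, -1.02 and -0.44 on the arrays of W1 and -1.04, -1.12, -1.35 and -0.90 on those of W2. They were -0.81, -0.55, -1.13 and -0.42 for W3 and -0.93, -0.72, -0.69 and -0.28 for W4. Every one of the 16 arrays was on the minus side, and the ranges of the 4 mice overlapped.

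The coefficients of Rdh16f2 were -0.77, -1.10, -0.73 and -0.66 in W1 to W4 (SE 0.09 each), or 1.70-, 2.15-, 1.65- and 1.58-fold from W5. The range was 1.10 (2.15-fold; limma, adjusted p = 4.75e-08 over the 5 kidneys), and each of the 4 pairs with W5 was called (limma, adjusted p from 7.44e-07 to 0.000613). The 6 pairs among W1 to W4 were not called, and the test among those 4 mice gave an adjusted p of 0.320 in limma. The mean of the 4 mice was -0.81 ± 0.20 (SD, n = 4 mice), and limma on the mouse means called it (adjusted p = 0.00126) as the only member, against 26 of 8005 named genes (0.325%). At an unadjusted p under 0.05 that test had 8 members and 12.9% of named genes. It leaves out the spread of W5 itself, which is 1 mouse, and with a spread for W5 added the call was lost (limma, adjusted p = 1, unadjusted p = 0.000526).

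Markers of adipose tissue lay on the same side as Rdh16f2, apart from Lpl in W3. The list of 7 adipose markers was chosen with earlier results of these data known. Of the 7, 4 were tested and all 4 (Fabp4, Cidec, Car3 and Lpl) were called in the 5-kidney test, against 4.20% of named genes. Their median coefficients were -0.23, -0.42, -0.50 and -0.42 in W1 to W4, with single markers from -0.85 to 0.10. Fabp4, the fatty acid carrier of fat cells, had coefficients of -0.47, -0.67, -0.64 and -0.31. Markers of the third segment of the proximal tubule also had minus medians (-0.13, -0.15, -0.02 and -0.34 in W1 to W4), with single markers on both sides. The part of adipose tissue or of this segment in the Rdh16f2 result was not tested. The dye term of Rdh16f2 was also called (-0.17, limma, adjusted p = 0.0230), while as deposited its mean had opposite signs in the 2 channel arrangements in each of the 4 mice.

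Rdh16, the neighbour of Rdh16f2 and a retinol and steroid dehydrogenase of the endoplasmic reticulum, had another pattern. Its values were 0.24, -0.03, 0.17 and 0.14 on the arrays of W1 and -0.03, -0.13, -0.14 and -0.26 on those of W2. They were -0.24, -0.34, -0.63 and -0.42 for W3 and -0.10, -0.01, -0.04 and 0.38 for W4. All arrays of W3 and W2 were below 0, and W3 overlapped W2 but neither W1 nor W4. The coefficients were 0.13, -0.14, -0.41 and 0.06 (SE 0.09 each; range 0.54, 1.45-fold; limma, adjusted p = 0.0443), and of the pairs only W3 and W5 were called (limma, adjusted p = 0.0354; 0.575% of named genes). This call stood close to the threshold: it was lost in 19 of 29 alternatives, among them the replicate block (limma, adjusted p = 0.0583). These included leaving out any single array of W2 or W3, arrays 1, 3 or 4 of W1, arrays 2 or 3 of W4, or the mice W1, W2 or W3, and without W3 the range was 0.27 (limma, adjusted p = 0.553). The next coding gene beyond Rdh16f2, Rdh7, had coefficients of 0.09, 0.16, 0.03 and -0.12 and was not called (limma, adjusted p = 0.607). Of these 3 genes of 1 cluster, Rdh16f2 alone was on the minus side in every mouse. Their coefficients were not tested against each other. Whether the spots of the cluster bind each other's transcripts was not tested.

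Rdh5, the 11-cis retinol dehydrogenase known from the retinal pigment epithelium, had the widest range of the Rdh genes that were not called, 0.60 (1.52-fold; limma, adjusted p = 0.189). Its highest array, 1.22, and its next, 0.42, were both of W4. Without array 4 of W4 the range was 0.36, and without arrays 3 and 4 of W4, the arrays with the fewest values, it was 0.26. The narrowest was Rdh14, at 0.18. Both tested probes of Rdh11, a retinal reductase, were not called (ranges 0.18 and 0.25; limma, adjusted p = 0.563 and 0.711).

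**Figure D4:**
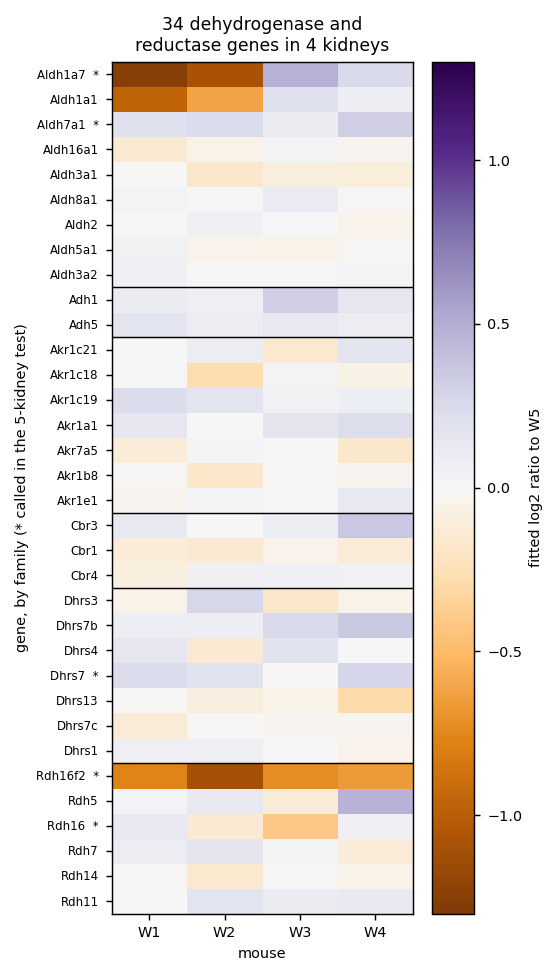
Fitted log2 ratio to W5 (colour; purple for the plus side, orange for the minus side) of the 34 tested members (rows, grouped by family, with a star for those called) in the mice W1 to W4 (columns). Aldh1a7 and Aldh1a1 are orange in W1 and W2 alone, Rdh16f2 is orange in all 4 mice, and most other cells are pale.

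In the Dhrs family, whose members reduce retinal and other carbonyls, Dhrs7 was called. Dhrs7, a reductase of the endoplasmic reticulum membrane, had values of 0.15, 0.22, 0.19 and 0.41 on the arrays of W1 and 0.11, 0.30, 0.16 and 0.14 on those of W2. They were 0.17, -0.23, 0.05 and -0.05 for W3 and 0.35, 0.36, 0.26 and 0.14 for W4. W1, W2 and W4 were above 0 on all of their arrays and W3 lay around 0. The coefficients were 0.24, 0.18, -0.01 and 0.28 (SE 0.08 each; 1.22-fold range; limma, adjusted p = 0.0373), and no pair was called. The call was lost in 18 of 29 alternatives, among them the replicate block (limma, adjusted p = 0.0632; 0.0222 to 0.165 over all of them). These included leaving out any single array of W1 or W2, array 4 of W3, arrays 1, 2 or 3 of W4, or the mice W1, W2 or W4.

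Dhrs3, which reduces retinal to retinol, had the widest range of the Dhrs genes that were not called, 0.45 (1.37-fold; limma, adjusted p = 0.222). Its coefficients were -0.06, 0.27, -0.18 and -0.06, so W2 was the kidney on the plus side. Dhrs1 had the narrowest range, 0.12. Dhrs4, a peroxisomal retinal reductase, and Dhrs7b had ranges of 0.32 and 0.35 without a call (limma, adjusted p = 0.176 and 0.349).

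Of the alcohol dehydrogenases, Adh1, the class I enzyme that oxidises ethanol and retinol, had coefficients of 0.10, 0.07, 0.32 and 0.15. Its 4 arrays of W3 were 0.37, 0.28, 0.27 and 0.36, and its arrays of the other mice ran from -0.16 to 0.39. The range of 0.32 (1.25-fold) was not called (limma, adjusted p = 0.0895). Adh5, the formaldehyde-clearing class of the family, had a range of 0.17.

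Of the aldo-keto reductases, Akr1c21, a hydroxysteroid dehydrogenase strongly expressed in mouse kidney, had the widest range, 0.34 (1.26-fold; limma, adjusted p = 0.415), and Akr1e1 the narrowest, 0.16. The other 5, among them the aldehyde reductase Akr1a1 of ascorbate synthesis (0.22) and the progesterone-metabolising Akr1c18 (0.31), lay between. Of the carbonyl reductases, Cbr3 had a range of 0.36 (limma, adjusted p = 0.361), with single arrays from -0.33 to 0.84. Without array 3 of W4 the range of Cbr3 was 0.23, and without arrays 3 and 4 of W4 it was 0.11. Its neighbour Cbr1, which reduces quinones and prostaglandins, had the narrowest of the Cbr ranges, 0.14. Single arrays also moved narrow ranges elsewhere: Dhrs1 had 0.27 without array 2 of W1 and 0.25 without array 1 of W2, Akr1e1 0.26 without array 2 and 0.09 without array 3 of W4, and Adh5 0.26 without array 4 of W1.

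All 4 mice lay on the same side of W5 for 13 of the 34 members (38.2%; 7 on the plus side and 6 on the minus side), against 21.8% of named genes. Such counts rest on W5, which all 4 comparisons share. Over the 10 pairs of kidneys, 12 of 340 member and pair combinations were called (3.53%), against 0.795% over all named genes. Of these 12 calls, 6 belonged to Aldh1a7, 4 to Rdh16f2, and 1 each to Aldh7a1 and Rdh16. The dye term was called for 7 members (20.6%; Aldh7a1, Aldh8a1, Rdh16f2, Rdh7, Adh5, Akr7a5 and Cbr4), against 13.7% of named genes.

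Genes of the retinoid pathway outside these families were given by a list of 28 genes. Of these, 12 were tested and 4 called (33.3%, against 4.20% of all named genes). The list was chosen with earlier results of these data known. The median range of the 12 was 0.29. Ttr, which carries retinol-binding protein and thyroid hormone in blood, had coefficients of 0.05, -0.54, -0.28 and -0.47 (limma, adjusted p = 9.99e-05), but another Ttr probe had 0.04, -0.12, -0.03 and -0.03 (adjusted p = 0.907). Cyp26b1, which degrades retinoic acid, had -0.13, 0.29, 0.05 and 0.53 (limma, adjusted p = 0.00967). The retinoic acid receptor gene Rara (range 0.56) and the fatty acid and retinoic acid carrier Fabp5 (range 0.37) were called close to the threshold (limma, adjusted p = 0.0494 and 0.0355), and a further Rara probe was not (adjusted p = 0.119).

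A list of 18 enzymes that make aldehydes or handle polyols had 10 tested genes, and limma called 0 of them (0 at an unadjusted p under 0.05). Its median range was 0.21, and its members included the monoamine oxidases Maoa and Maob and the choline dehydrogenase Chdh. The list of 16 genes of the response to electrophiles was also chosen with earlier results of these data known. Of the 16, 8 were tested and 3 called (37.5%, against 4.20% of all named genes). They were the sulfiredoxin Srxn1, the glutathione transferase Gsta2 and Gclc, a subunit of the enzyme that starts glutathione synthesis. Gsta2 had coefficients of 0.45, 0.62, -0.17 and 0.38 (limma, adjusted p = 4.22e-05). Gclc had 0.11, -0.07, 0.90 and -0.15 (adjusted p = 0.000250 in limma). A further Gclc probe disagreed with it (-1.61, -1.19, -1.34 and -1.19) and was also called (limma, adjusted p = 0.000776), with a residual SD of 0.71.

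Some markers of the proximal tubule were called in the 5-kidney test and others were not. Of the early segment markers, 3 of 7 tested were called, against 4.20% of all named genes, with median coefficients of 0.16, 0.16, -0.05 and 0.09 in W1 to W4. Of the markers of the third segment, 5 of 9 were called, with medians of -0.13, -0.15, -0.02 and -0.34. Of the other lists, 3 of 4 endothelial, 3 of 4 collecting duct, 2 of 7 leukocyte, 0 of 4 loop and distal, 0 of 2 red cell and 0 of 3 adrenal markers were called by limma (at an unadjusted p under 0.05 the last 3 lists had 2, 0 and 1). The marker lists were chosen with earlier results of these data known. The part of these cell types in the members' results was not tested.

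The genes whose 4 coefficients were most like those of the called members were taken from the 504 named genes with a range of at least 0.5, by the cosine over the 4 mice. For Aldh1a7 they were Aldh1a1 (0.981), Gipc2 (0.949) and Tuba3b (0.917), and none of these was called (limma, adjusted p = 0.160, 0.0622 and 0.385). For Rdh16f2 they were Fabp4 (0.980), Serpina10 (0.974) and Cox8b (0.971), all called; Serpina10, a liver-type protease inhibitor gene, had -0.92, -2.01, -1.84 and -1.16. For Rdh16 they were Car5b (0.982), Snx29 (0.977) and Cdkl1 (0.967), of which Cdkl1 was called (limma, adjusted p = 0.000588). These cosines are descriptions over 4 values that share W5.

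**Figure D5:**
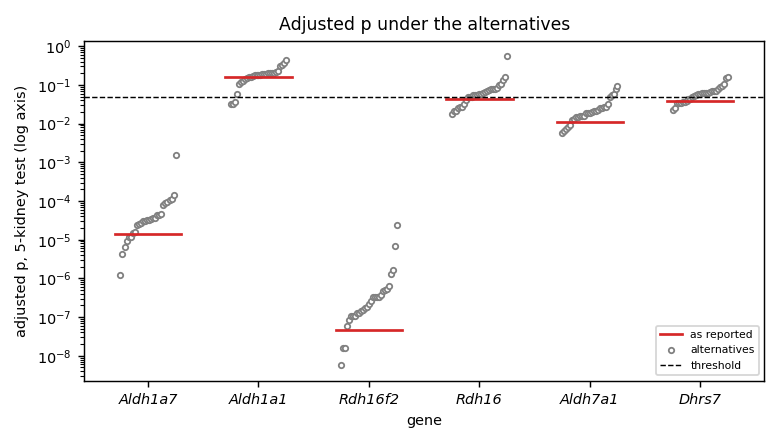
Adjusted p of the 5-kidney test (vertical axis, log scale) for 6 genes (horizontal axis); red lines are the values as reported, grey circles the processing alternatives, and the dashed line the threshold of 0.05. Aldh1a7 and Rdh16f2 stay under the line in every alternative in which they were tested. Aldh1a1, Rdh16, Aldh7a1 and Dhrs7 have circles on both sides of the line.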

How the data were processed

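Both dyes of each array were scanned with a GenePix scanner (4000A) and read with GenePix Pro 3.0, per the labels; mean intensities less background were scaled so that the median ratio was 1. The authors deposited log2 ratios, with the log base read from the values: on each array, once its most frequent value was subtracted, 1.55% to 4.90% matched (tolerance 2e-06) a log2 quotient of whole numbers no higher than 12 (a step added after a first trial without it), against at most 0.0342% for ln and 0.123% for log10. The filter behind empty cells is not given in the sources used here. The platform annotation gave 11723 probes 1 symbol, 806 several and 7676 none; for a gene with several probes the one with most values was used. Ratios were turned so that the mouse counts as channel 1 and fitted with limma 3.58.1 (R 4.3.3), with 4 mouse coefficients and a dye term, with Benjamini-Hochberg adjustment over 15715 probes. Mouse means for the W5 test were means of the 2 channel arrangements' means. The fit was tested on simulated data.

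In an alternative, array numbers 1 to 4 were treated as pairing arrays. The reason was that deviations from the mouse means correlated between same-numbered arrays of different mice in all 24 cases (0.105 to 0.384, 11192 probes). Arrays of another number in the same channel arrangement also correlated in all 24 cases (0.0161 to 0.351). After the dye term the correlations of same-numbered arrays were -0.265 to 0.188, so the pairing may be the channel arrangement itself. This check after the dye term was added later. That alternative was the replicate block, in place of the dye term.

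Named were every called member, the members of widest and narrowest range in each family that were not called, members whose probes differed in their call, and for the 3 called members of widest range the 3 most alike genes. Other Akr, Aldh, Dhrs and Rdh genes, and further probes of the named list genes, were named after their values were seen. The members, the 12 gene lists, the promoters shown and their motifs were chosen with earlier results of these data known. Promoters were aligned with Biopython 1.88. Alternatives changed the dye term, array weights, scale, centring, the filter on values, the probe choice, and left out arrays and mice.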

Additional observations from a re-analysis of the deposited data

Results flagged for a closer look

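The difference between mice in their ratio to W5 was itself called for Aldh1a7 in 4 pairs (limma): W1 minus W3 was -1.72, W1 minus W4 -1.50, W2 minus W3 -1.56 and W2 minus W4 -1.33.

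In 8 of 159 groups of 4 values 1 value stood far from the other 3; chance gives this in about 1 in 20 groups, which is the share seen. Of the 7 single arrays, 5 were of W4. In W4, Dhrs3 was 0.36 on array 2 against -0.23 to -0.16, Cbr4 0.48 on array 1 against -0.12 to -0.06, and Rdh7 0.22 on array 1 against -0.29 to -0.20. Also in W4, Aldh3a2 was 0.22 on array 4 against -0.07 to -0.02, and Dhrs7c 0.23 on array 3 against -0.16 to -0.09. Akr1c21 was 0.23 on array 1 of W2 against 0.04 to 0.05, and Dhrs1 was -0.24 on array 2 of W1 against 0.15 to 0.21. The mean of Cbr4 in W1 was -0.09, against 0.05 to 0.06 in the other mice. None of these genes was called.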

How the results depend on the processing

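Aldh1a7 kept its call in the 28 alternatives that tested it (range 1.51 to 1.88, limma adjusted p from 1.23e-06 to 0.00158) and Rdh16f2 in all 29 (0.77 to 1.19, adjusted p from 5.75e-09 to 2.39e-05). Of the 5 members called over the 5 kidneys, 2 were called without the dye term and 3 with the replicate block in place of the dye term; leaving out single arrays or mice gave 2 to 5. Aldh7a1 lost its call in 4 alternatives. The count among W1 to W4 was 2 with array weights, which added Rdh16. It was 0 with probes on all 16 arrays, a filter that drops Aldh1a7 for its missing value. The same filter gave 7 pair calls in place of 12. Not all of these were among the 12, because the 6 of Aldh1a7 drop out. Leaving out single arrays gave 10 to 13 pair calls. Leaving out a mouse gave 6 to 8, but it also leaves fewer pairs to test. With a spread added for W5 the W5 test called 0 members in limma (3 probes in all; Rdh16f2 had an unadjusted p of 0.000526). The 7 dye calls became 2 to 9 under leave-outs. The 8 coefficients against W5 that a pair test called kept their sign in each of the 27 or 28 alternatives that gave them.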
